A study of Homo sapiens with 19 samples.

Results

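The elements named TRE5GCNC are 282 designed DNA elements from 142 loci, tested by QUASARR-seq in K-562, a leukaemia cell line of human origin. They were selected by name alone, as every row named TRE5GCNC with a 4-digit locus number and the orientation .fwd or .rev. They are part of the 3196 element names in the 6 tables of 1 plasmid pool, and of 3422 names in the whole series; the tables of the other pool hold 0 of them. Both orientations of a locus were present for 140 loci, and 229 elements were listed in all 6 tables. The labels do not say what the letters GCNC stand for, and the sequences and genome positions of the elements were not used here, so the elements are described by their names and their values.

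QUASARR-seq reads promoter and enhancer activity of the same DNA from 1 plasmid. A promoter is the DNA at which RNA polymerase starts a transcript, an enhancer raises transcription from a promoter elsewhere, and many active elements in human cells can do both. A minimal promoter is a short stretch around a gene's start site that gives little RNA by itself and lets the effect of a neighbouring element be read. The minimal promoters of this pool were named for MYC, a transcription factor of cell growth, GAPDH, a glycolytic enzyme with a strong housekeeping promoter, and APOBEC3F, an antiviral cytidine deaminase.

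All cells carried the same pool, in the plasmid pDEST-QUASARR-luc-gfp with pGAPDH, pMYC and pAPOBEC3F together, and no untreated group exists. Cells received 20 µg of plasmid per electroporation and were harvested after 6 h. Each of the 2 barcodes on a plasmid was sequenced as RNA and as DNA in replicates 1 and 2, which makes 8 libraries in the groups paBC RNA, paBC DNA, eaBC RNA and eaBC DNA, with 2 libraries each. RNA over DNA of paBC was taken as the promoter read-out and that of eaBC as the enhancer read-out. Per the sample descriptions, a technical replicate comprised 5 electroporations, and a biological replicate comprised 2 technical ones. Which of these levels the numbers 1 and 2 of the libraries stand for is left unstated. The libraries may thus be 2 technical replicates of 1 biological replicate, so all p-values measure only the spread between these libraries. Over the tables of the 3 minimal promoters, the paBC libraries held 12747362 to 14330433 reads and the eaBC libraries 2796045 to 3794113. The TRE5GCNC elements had a median of 301 to 3193 RNA reads per library in the promoter tables and of 63 to 1076.5 in the enhancer tables. At fewer than 20 RNA reads in a library stood 41 of 257 tested elements of the pAPOBEC3F enhancer table, 9 of 244 of the pMYC enhancer table and at most 2 of any other table. The labels name no molecular identifiers, so reads cannot be taken as independent molecules. Replicates of the log2 RNA/DNA ratio correlated across the elements with r of 0.980, 0.989 and 0.984 in the promoter tables of pMYC, pGAPDH and pAPOBEC3F and with 0.881, 0.840 and 0.832 in their enhancer tables.

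As promoters, most TRE5GCNC elements gave modest log2 RNA/DNA ratios. The highest values came from TRE5GCNC0171, TRE5GCNC0155, TRE5GCNC0117 and TRE5GCNC0054. The upper end was graded under pMYC and pAPOBEC3F, where 22 and 45 elements had a ratio above 2. Under pGAPDH TRE5GCNC0054.rev stood apart, at 6.42 with the next element at 2.04. An element was called higher or lower where the authors' deposited table gave an adjusted limma p under 0.05. Under pMYC, the authors' deposited table had 145 of 244 TRE5GCNC elements higher and 55 lower, that is 59.4% and 22.5%, where 52.3% and 27.8% of all 2561 elements were called. Under pAPOBEC3F it was 141 of 259 higher and 62 lower in the authors' deposited table, or 54.4% and 23.9%, beside 50.7% and 30.6% of all 2699 elements. Under pGAPDH the authors' deposited table had 103 of 277 higher and 130 lower, or 37.2% and 46.9%, beside 36.3% and 46.6% of all 3044 elements. The shares of TRE5GCNC elements thus lay within 10 percentage points of those of their tables in each of the 3. The median ratio of the elements was 0.32 under pMYC, 0.33 under pAPOBEC3F and -0.05 under pGAPDH, and that of all elements was 0.24, 0.24 and -0.07. Their spread (SD over elements) was 0.97, 1.31 and 0.67, against 1.25, 1.54 and 0.67 for all elements. A ratio of at least 1 was reached by 65, 96 and 12 of them under pMYC, pAPOBEC3F and pGAPDH, or 26.6%, 37.1% and 4.33%, beside 28.1%, 34.1% and 6.47% of all elements. The count of lower elements moved with the zero point. With the ratios centred on their median over all elements of the table, a limma fit called 113 higher and 88 lower under pMYC. Under pAPOBEC3F it called 125 and 104. Under pGAPDH it called 125 and 111, so there the higher elements outnumbered the lower ones, unlike in the authors' deposited table. The 62 lower elements of pAPOBEC3F became 39 without DNA replicate 2.

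TRE5GCNC0171 was among the leading promoters under every minimal promoter. Its rev element had log2 RNA/DNA ratios of 4.12 and 4.14 in replicates 1 and 2 under pMYC, 1.75 and 1.66 under pGAPDH, and 5.37 and 5.29 under pAPOBEC3F. Its fwd element was measured under pGAPDH, at 2.08 and 2.00, and under pAPOBEC3F, at 5.51 and 5.32. In reads, the rev element had 770 and 764 DNA reads and 3458 and 3822 RNA reads under pMYC, and 1706 and 1777 DNA reads and 12094 and 12870 RNA reads under pAPOBEC3F. All replicates of the rev element, and those of the fwd element under pGAPDH and pAPOBEC3F, lay far above 0. With each table on its own scaling, the values were smallest under pGAPDH. In the authors' deposited table of the pAPOBEC3F promoter read-out, the adjusted limma p was 1.3e-31 for the rev element. TRE5GCNC0155 behaved in the same order: the rev element reached 3.58 and 3.54 under pMYC, a mean of 1.54 ± 0.06 (SD, n = 2) under pGAPDH, and 4.46 and 4.40 under pAPOBEC3F. Its fwd element gave 1.77 and 1.68 under pGAPDH and 4.64 and 4.61 under pAPOBEC3F, from 1621 to 2478 DNA reads per library. TRE5GCNC0164.rev followed, with a mean of 3.29 ± 0.14 for pMYC, 1.33 ± 0.11 for pGAPDH and 4.03 ± 0.01 for pAPOBEC3F (SD, n = 2 each).

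The highest pMYC promoter value belonged to TRE5GCNC0117.rev, with ratios of 4.18 and 4.17 from 511 and 569 DNA reads and 2399 and 2893 RNA reads. Under pGAPDH it gave 1.68 and 1.62, and it was not listed under pAPOBEC3F. The fwd element of the same locus stood at 0.93 and 1.07 under pMYC and at -0.49 and -0.43 under pGAPDH, so the values of the 2 orientations did not overlap. TRE5GCNC0054 gave the highest value under both other minimal promoters, each from 1 orientation. The rev element was measured under pGAPDH alone, at 6.39 and 6.44, from 105 and 101 DNA reads and 13592 and 14961 RNA reads. The fwd element was measured under pAPOBEC3F alone, at 5.38 and 5.56, from 209 and 198 DNA reads and 1501 and 1724 RNA reads. The second highest TRE5GCNC value under pGAPDH was 2.04 ± 0.05 (SD, n = 2, TRE5GCNC0171.fwd), so TRE5GCNC0054.rev had no neighbour among the TRE5GCNC elements. The orientations of TRE5GCNC0054 were thus never read with the same minimal promoter, and no difference between them was tested.

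At the low end as promoters stood TRE5GCNC0017.fwd, TRE5GCNC0025.fwd, TRE5GCNC0106.rev, TRE5GCNC0107.rev and TRE5GCNC0133.fwd. TRE5GCNC0025.fwd had the lowest pMYC promoter value, -1.60 and -1.55 in replicates 1 and 2, from 1142 and 1205 DNA reads and 97 and 116 RNA reads. It gave -0.93 and -0.92 under pGAPDH and -1.25 and -0.82 under pAPOBEC3F. TRE5GCNC0017.fwd was low under all 3, with -1.39 and -1.19, -1.46 and -1.30, and -1.19 and -1.13 under pMYC, pGAPDH and pAPOBEC3F. TRE5GCNC0106.rev gave -1.15 ± 0.04, -1.37 ± 0.10 and -0.96 ± 0.21 in the same order (SD, n = 2 each). Both replicates of these 3 elements lay below 0 under every minimal promoter. The lowest pGAPDH values were those of TRE5GCNC0107.rev, -1.65 and -1.73, and TRE5GCNC0133.fwd, -1.57 and -1.58. TRE5GCNC0107.rev was on the other side of 0 under pAPOBEC3F, at 1.43 and 0.57 from 72 and 43 RNA reads. The lowest pAPOBEC3F promoter values rested on few reads. TRE5GCNC0138.rev gave -2.15 and -0.53 from 7 and 24 RNA reads, and TRE5GCNC0043.fwd gave -1.57 and -0.64 from 7 and 14. Both were called lower in the authors' deposited table, and the calls ended in limma fits without DNA replicate 1 (adjusted p 0.062 and 0.18) or without DNA replicate 2 (0.052 and 0.13).

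As enhancers the elements spanned a narrower range, and TRE5GCNC0149 was among the leaders with every minimal promoter. For pMYC, the authors' deposited table had 107 of 244 TRE5GCNC elements higher and 17 lower (43.9% and 6.97%), beside 40.4% and 7.38% of all 2561 elements. The authors' deposited table listed 75 of 257 as higher and 12 as lower with pAPOBEC3F (29.2% and 4.67%), beside 30.1% and 7.38% of 2695. With pGAPDH, 69 of 276 were higher and 55 lower in the authors' deposited table, the latter 19.9%, beside 22.2% higher and 18.5% lower of 3043. These shares, too, were close to those of the tables. Median ratios were 0.19, 0.11 and 0.00 under pMYC, pAPOBEC3F and pGAPDH, against 0.19, 0.09 and -0.01 over all elements. A ratio of at least 1 was reached by 33 elements under pMYC and by 34 under pAPOBEC3F, or 13.5% and 13.2%, beside 15.9% and 13.5% of all elements. Under pGAPDH 0 of 276 reached it, beside 1.74% of all elements. With the ratios centred on their median over all elements of the table, the higher and lower calls became 78 and 53 under pMYC. Under pAPOBEC3F they became 65 and 28, and under pGAPDH 74 and 59. Left-out libraries moved the enhancer calls too. The 17 lower elements of pMYC became 6 and 9 without DNA replicates 1 and 2. The 55 lower elements of pGAPDH became 24 without RNA replicate 2. Under pAPOBEC3F the higher calls became 48 without DNA replicate 1, and the lower ones 2 without DNA replicate 1, 1 without DNA replicate 2, 45 without RNA replicate 1 and 35 without RNA replicate 2.

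TRE5GCNC0149.fwd gave enhancer ratios of 2.28 and 2.71 under pMYC, 0.99 and 0.99 under pGAPDH and 2.50 and 2.22 under pAPOBEC3F. Its pGAPDH value rested on 567 and 538 DNA reads and 2537 and 2688 RNA reads, its pMYC value on 48 and 39 DNA reads and 80 and 95 RNA reads. The rev element of the locus gave 2.42 ± 0.03, 0.89 ± 0.02 and 2.17 ± 0.12 in the same order (SD, n = 2 each). Both orientations were therefore high as enhancers in every library. TRE5GCNC0149 was also high as a promoter, with 3.04 ± 0.09 for the fwd and 2.70 ± 0.03 for the rev element under pMYC (SD, n = 2 each). TRE5GCNC0117.rev led the pMYC enhancer table, with 3.13 and 3.01 from 384 and 499 RNA reads, and after both orientations of TRE5GCNC0149 came TRE5GCNC0171.rev, with 2.36 and 2.20. Under pAPOBEC3F, TRE5GCNC0135.fwd reached 2.48 and 1.96 and TRE5GCNC0102.fwd 2.08 and 2.18. Under pGAPDH, TRE5GCNC0022.fwd gave 0.80 and 1.02 and TRE5GCNC0054.rev 1.25 and 0.64, the latter from 18 and 24 DNA reads. The call of TRE5GCNC0054.rev ended in a limma fit without RNA replicate 1 (adjusted p 0.064).

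Among the low enhancer values, TRE5GCNC0017.fwd was below 0 in every replicate. It stood at -0.70 and -0.73 under pMYC, -0.44 and -0.25 under pGAPDH and -0.63 and -0.97 under pAPOBEC3F, the last from 15 RNA reads in each replicate. TRE5GCNC0025.fwd gave -0.45 and -0.50 under pGAPDH and TRE5GCNC0004.rev -0.41 and -0.65. TRE5GCNC0100.fwd had the lowest pAPOBEC3F enhancer value, -1.67 and -0.89, from 5 and 11 RNA reads, and TRE5GCNC0159.rev followed with -0.70 and -1.08 from 20 and 21. Several of these low calls depended on 1 library in a limma fit. Those of TRE5GCNC0017.fwd and TRE5GCNC0100.fwd under pAPOBEC3F ended without DNA replicate 1 (adjusted p 0.18 and 0.16) or DNA replicate 2 (0.35 and 0.23). That of TRE5GCNC0159.rev ended without DNA replicate 2 (0.21), and that of TRE5GCNC0004.rev without RNA replicate 2 (0.057). Under pMYC, TRE5GCNC0119.rev gave -0.35 and -0.99 as an enhancer, and its call ended without DNA replicate 1 (0.10), DNA replicate 2 (0.38) or RNA replicate 2 (0.056).

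Some elements were called alike in every table. Of the 228 elements tested in all 6 tables, the authors' deposited tables had 27 higher in every one (11.8%), from 20 loci, and both orientations of 7 of these loci. Of all 2224 elements tested in the 6 tables, 14.9% were higher in every one, 1.8% lower in every one and 1.93% called in none. The 7 loci were TRE5GCNC0022, TRE5GCNC0102, TRE5GCNC0108, TRE5GCNC0120, TRE5GCNC0137, TRE5GCNC0149 and TRE5GCNC0154. At TRE5GCNC0102 the fwd element had promoter and enhancer means of 2.18 ± 0.01 and 1.89 ± 0.30 under pMYC, of 0.40 ± 0.03 and 0.71 ± 0.09 under pGAPDH, and of 2.63 ± 0.03 and 2.13 ± 0.07 under pAPOBEC3F (SD, n = 2 each). The enhancer mean was the smaller one under pMYC and pAPOBEC3F and the larger one under pGAPDH. TRE5GCNC0120.fwd was further apart, with 2.62 ± 0.02 as a promoter and 1.39 ± 0.04 as an enhancer under pMYC, and 3.17 ± 0.00 and 1.20 ± 0.00 under pAPOBEC3F (SD, n = 2 each). The promoter and enhancer tables were scaled separately, so such gaps were not tested. TRE5GCNC0050.rev showed that a call in all 6 tables did not need a large ratio, with promoter means of 0.55, 0.45 and 0.49 and enhancer means of 0.44, 0.29 and 0.33 under pMYC, pGAPDH and pAPOBEC3F. Lower in all 6 tables were 4 elements of 4 loci, TRE5GCNC0015.rev, TRE5GCNC0017.fwd, TRE5GCNC0018.rev and TRE5GCNC0020.fwd, and 3 elements were called in none. TRE5GCNC0020.fwd was among the best covered, with -0.66 ± 0.08 as a promoter from 956 and 1113 RNA reads and -0.54 ± 0.03 as an enhancer from 298 and 313 RNA reads under pMYC (SD, n = 2 each). These loci were singled out by their calls after the values were seen.

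Promoter and enhancer calls of an element were set side by side within each minimal promoter. Of the elements higher as enhancers in the authors' deposited tables, 97 of 107 under pMYC, 51 of 69 under pGAPDH and 68 of 75 under pAPOBEC3F were also higher as promoters, or 90.7%, 73.9% and 90.7%, beside 92.7%, 82.7% and 95.3% of all elements higher as enhancers. Seen from the promoters, these were 66.9% of 145, 51 of 102 and 48.6% of 140, beside 71.7%, 50.7% and 56.6% of all elements higher as promoters. Opposite calls were few: 1 element was higher as promoter and lower as enhancer under pMYC and 3 the reverse, 4 and 11 under pGAPDH, and 1 and 3 under pAPOBEC3F. Over all elements the same calls made up 0.235% and 0.587% under pMYC, 1.18% and 1.97% under pGAPDH, and 0.446% and 0.372% under pAPOBEC3F. Across the elements, which share libraries, the promoter and enhancer ratios correlated with r of 0.828 under pMYC (rho 0.779, 244 elements), 0.613 under pGAPDH (rho 0.636, 276 elements) and 0.735 under pAPOBEC3F (rho 0.695, 257 elements). Over all elements of these tables r was 0.835, 0.616 and 0.765.

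Some elements held very different ranks in the 2 read-outs. Ranks are percentiles among the TRE5GCNC elements of a table, so both read-outs have the same scale. On the promoter side, TRE5GCNC0026.fwd under pAPOBEC3F stood at the 96.1 percentile as a promoter, with 3.24 and 3.52, and at the 21.4 percentile as an enhancer, with -0.51 and 0.17 from 7 and 15 RNA reads. TRE5GCNC0168.fwd under pAPOBEC3F stood at the 77.4 and 12.8 percentiles, with 1.77 and 1.54 against 0.12 and -0.65. Under pMYC, TRE5GCNC0101.rev lay at 57.8 and 7.8 and TRE5GCNC0167.fwd at 49.2 and 3.3. TRE5GCNC0167.fwd had promoter ratios of 0.30 and 0.29 and enhancer ratios of -0.26 and -0.73 under pMYC, so its replicates lay on opposite sides of 0 in the 2 read-outs. Under pGAPDH, TRE5GCNC0029.fwd stood at the 77.2 percentile as a promoter, with 0.20 and 0.30, and at 21.4 as an enhancer, with -0.13 and -0.19, from 8106 and 8035 DNA reads as a promoter and 1640 and 1648 as an enhancer. TRE5GCNC0006.rev under pGAPDH lay at 68.1 and 12.7.

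On the enhancer side, TRE5GCNC0138.fwd held its place with every minimal promoter. Under pMYC its promoter ratios were -0.55 and -0.42 and its enhancer ratios 0.62 and 0.93, at the 11.1 and 79.5 percentiles. The same element gave -0.27 and -0.16 as a promoter and 0.75 and 0.63 as an enhancer under pGAPDH, and -0.84 and -0.74 against 0.36 and 0.37 under pAPOBEC3F. All 6 promoter ratios thus lay below 0 and all 6 enhancer ratios above it, and the authors' deposited tables called the element lower in each promoter table and higher in each enhancer table. Under pGAPDH, TRE5GCNC0035.rev stood at the 6.9 and 89.5 percentiles, with -0.77 and -0.79 as a promoter and 0.45 and 0.35 as an enhancer. TRE5GCNC0053.fwd stood at 4.7 and 84.8 under pGAPDH, with enhancer ratios of 0.36 and 0.29. Other shifts rested on few reads or on replicates far apart. TRE5GCNC0085.fwd under pMYC, at 2.5 and 76.2, had enhancer ratios of -0.04 and 1.33 from 13 and 27 RNA reads. TRE5GCNC0138.rev and TRE5GCNC0106.fwd under pAPOBEC3F, at 0.4 and 76.3 and at 7.0 and 74.7, had 13 and 8 and 17 and 18 enhancer RNA reads.

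The orientations of a locus differed at most loci in the promoter read-out and at fewer in the enhancer read-out. The fwd and rev elements of a locus were compared within each library, RNA minus DNA, with limma over all loci of a table that had both orientations. As promoters under pMYC, the fwd element was higher at 63 of 113 TRE5GCNC loci and the rev element at 20 (55.8% and 17.7%), beside 40.1% and 23.3% of all 1086 loci, or 63.4% in either direction. Under pGAPDH the fwd element was higher at 70 of 135 loci and the rev at 36 (51.9% and 26.7%), beside 39.9% and 32.6% of all 1429, or 72.5% in either direction. Under pAPOBEC3F these were 54 and 16 of 120 loci (45.0% and 13.3%), beside 35.5% and 21.6% of all 1192, or 57.1% in either direction. The median difference, fwd minus rev, was 0.31, 0.16 and 0.21 under pMYC, pGAPDH and pAPOBEC3F, against 0.13, 0.04 and 0.14 over all loci. The loci of 2 like-named sets, TRE5GCLR and TRE5GCCC, gave medians of 0.08 and 0.14 under pMYC, 0.03 and 0.07 under pGAPDH and 0.17 and 0.14 under pAPOBEC3F, and the fwd element was higher at 39.3% and 42.0%, 38.8% and 43.9%, and 41.7% and 36.7% of their loci. Whether the sets differ was not tested, since loci are not replicates. Most differences were small. A called difference of at least 1 was found at 7 loci under pMYC, 7 under pGAPDH and 6 under pAPOBEC3F. These were 6.19%, 5.19% and 5.0%, beside 12.2%, 6.72% and 13.8% of all loci. Across loci, fwd and rev ratios correlated with r of 0.786, 0.552 and 0.917, against 0.822, 0.619 and 0.861 over all loci. Under pAPOBEC3F the 54 calls for fwd became 33 without DNA replicate 2, and the 16 for rev became 26 without RNA replicate 2.

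In the enhancer read-out few loci were called, and more of them for the rev than for the fwd element. Over all member loci the median difference, fwd minus rev, was 0.04 under pMYC, -0.09 under pGAPDH and -0.04 under pAPOBEC3F, against -0.04, -0.07 and -0.07 over all loci, and under pMYC the fwd value was the higher one at 61 of 113 loci. The counts for fwd and rev were 5 and 12 of 113 loci under pMYC (4.42% and 10.6%), beside 5.06% and 8.84% of all loci, or 13.9% in either direction. They were 4 and 21 of 135 under pGAPDH (2.96% and 15.6%), beside 3.92% and 13.6%, or 17.5% in either direction. They were 3 and 4 of 119 under pAPOBEC3F (2.52% and 3.36%), beside 2.69% and 3.79%, or 6.48% in either direction. Without a variance trend in limma the fwd and rev counts were 0 and 2, 0 and 1, and 0 and 1. The counts also rested on single libraries. Under pMYC they were 0 and 5 without DNA replicate 1, 0 and 5 without DNA replicate 2, 12 and 17 without RNA replicate 1, and 15 and 19 without RNA replicate 2. Under pGAPDH they were 7 and 23, 9 and 32, 1 and 4, and 1 and 1 in that order, and under pAPOBEC3F 0 and 0, 0 and 0, 19 and 18, and 19 and 29. The enhancer libraries also held fewer reads, and the difference between the read-outs was not tested.

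TRE5GCNC0117 had the largest orientation difference under pMYC in both read-outs. As given above, its rev element was at 4.18 and 4.17 and its fwd element at 0.93 and 1.07 as promoters under pMYC. The difference, fwd minus rev, was -3.18 ± 0.08 (SE) under pMYC and -2.11 ± 0.08 under pGAPDH, with limma adjusted p of 1.7e-09 and 2.8e-08. As enhancers under pMYC the rev element gave 3.13 and 3.01 and the fwd element 0.16 and -0.04. The difference was -3.01 ± 0.18 (SE, limma adjusted p 3.3e-35). These fits take their variance partly from a trend on depth over all loci, so the sizes of their p-values do not rank the read-outs. Under pGAPDH the enhancer difference was -0.87 ± 0.16, and its limma adjusted p of 0.00325 became 0.091 without RNA replicate 1 and 0.093 without RNA replicate 2. The rev element was thus above the fwd element in every library of both read-outs. TRE5GCNC0094 was also higher in rev, with promoter ratios of 2.93 and 2.90 for rev and 1.38 and 1.52 for fwd under pMYC, a difference of -1.46 ± 0.11 (SE, limma adjusted p 2.7e-06). Its enhancer ratios under pAPOBEC3F were 1.69 and 1.54 for rev and 0.09 and 0.23 for fwd. That difference of -1.46 ± 0.17 had a limma adjusted p of 0.00586, which became 0.10 without DNA replicate 1 and 0.053 without DNA replicate 2. Under pGAPDH the orientations of TRE5GCNC0094 overlapped as promoters (0.14 and 0.42 for fwd, 0.45 and 0.40 for rev, limma adjusted p 0.145).

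In the other direction, TRE5GCNC0087 and TRE5GCNC0168 were higher in fwd. TRE5GCNC0087 gave 1.40 and 1.25 for fwd and -0.09 and -0.12 for rev under pMYC, and 1.69 and 2.10 against 0.21 and 0.02 under pAPOBEC3F. Its differences were 1.44 ± 0.07, 0.41 ± 0.05 and 1.78 ± 0.18 under pMYC, pGAPDH and pAPOBEC3F (SE, limma adjusted p 6.9e-08, 5.0e-05 and 8.1e-06). TRE5GCNC0168 gave 1.77 and 1.54 for fwd and -0.15 and -0.11 for rev under pAPOBEC3F, a difference of 1.79 ± 0.10 (SE, limma adjusted p 4.9e-08). Neither locus had a called fwd excess as an enhancer, where the difference of TRE5GCNC0087 was 0.03 ± 0.13 under pMYC and -0.29 ± 0.09 under pGAPDH (SE, limma adjusted p 0.911 and 0.0358). TRE5GCNC0061, next to TRE5GCNC0117 in size under pGAPDH, had -0.98 and -0.84 for fwd and 0.22 and 0.33 for rev, a difference of -1.18 ± 0.06 (SE, limma adjusted p 1.1e-07). Of the other enhancer differences, TRE5GCNC0167 under pMYC had -0.26 and -0.73 for fwd and 1.01 and 0.55 for rev, a difference of -1.27 ± 0.22 (SE, limma adjusted p 1.0e-06), while its promoter difference was 0.30 ± 0.10 (limma adjusted p 0.0285). Those of TRE5GCNC0097 under pAPOBEC3F, -1.22 ± 0.25, and TRE5GCNC0161 under pGAPDH, -0.79 ± 0.25, had limma adjusted p of 0.0356 and 0.0439. Both calls ended without DNA replicate 1 (0.54 and 0.17), and TRE5GCNC0097 also ended without DNA replicate 2 (0.35), TRE5GCNC0161 without RNA replicate 1 (0.24) or RNA replicate 2 (0.32).

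Across the 102 TRE5GCNC loci with both orientations under all 3 minimal promoters, the fwd element was called higher as a promoter under all 3 at 30 loci and the rev element at 3, TRE5GCNC0017, TRE5GCNC0050 and TRE5GCNC0132, while 6 loci had no call. These were 29.4%, 2.94% and 5.88%, beside 21.2%, 10.9% and 8.91% of all 932 such loci. At 10 loci (9.8%, beside 9.66% of all) the better orientation changed with the minimal promoter. These were TRE5GCNC0019, TRE5GCNC0045, TRE5GCNC0057, TRE5GCNC0058, TRE5GCNC0076, TRE5GCNC0102, TRE5GCNC0112, TRE5GCNC0121, TRE5GCNC0134 and TRE5GCNC0154, named after their values were seen. At TRE5GCNC0154 the rev element was higher under pMYC (2.78 and 2.88 against 2.04 and 2.37) and pAPOBEC3F (3.43 and 3.37 against 2.66 and 2.40), and the fwd element under pGAPDH (1.11 and 1.14 against 0.82 and 0.78). The differences were -0.63 ± 0.10, -0.87 ± 0.07 and 0.32 ± 0.04 (SE, limma adjusted p 0.00041, 1.2e-06 and 6.0e-05), and no replicate ranges overlapped. TRE5GCNC0058 showed the same order, with -0.84 ± 0.08, -0.79 ± 0.07 and 0.26 ± 0.04 (SE, limma adjusted p 2.1e-05, 3.2e-06 and 0.00046). TRE5GCNC0045 showed the reverse, with 0.48 ± 0.05 under pMYC, 0.43 ± 0.06 under pAPOBEC3F and -0.23 ± 0.04 under pGAPDH (SE, limma adjusted p 2.0e-05, 4.9e-05 and 0.00072). In the enhancer read-out the rev element was higher under all 3 at 2 loci, TRE5GCNC0132 and TRE5GCNC0134, and the fwd element at 0. No locus changed direction and 70 of 102 had no call. In this order the shares were 1.96%, 0%, 0% and 68.6%, beside 1.94%, 0.753%, 0.43% and 69.5% of all 930 such loci. A locus called in both read-outs under 1 minimal promoter had the same better orientation in 12 cases against 1 under pMYC, 15 against 7 under pGAPDH and 5 against 1 under pAPOBEC3F. These cases were not counted over all loci.

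How much the minimal promoter changes an element's activity was read on a common scale, because all 3 were sequenced in the same libraries. This scale holds only if 1 step of the scaled values is 1 read in each table. That is not given in the sources used here, so the levels, shifts and calls before centring rest on it. In reads, RNA per DNA was highest under pGAPDH and lowest under pAPOBEC3F in both read-outs. Over the 229 TRE5GCNC elements shared by the promoter tables, the median log2 of RNA reads over DNA reads was 0.59 and 0.72 under pGAPDH in replicates 1 and 2, -1.64 and -1.52 under pMYC, and -2.23 and -2.13 under pAPOBEC3F. Over the 228 shared in the enhancer tables it was 1.19 and 1.32, -1.36 and -1.23, and -2.25 and -2.05. The differences between minimal promoters were alike in both replicates, while the level itself depends on the depth of the libraries. Over all shared elements, the median of pGAPDH minus pMYC was 2.20 as promoters and 2.52 as enhancers, that of pAPOBEC3F minus pMYC -0.50 and -0.87, and that of pAPOBEC3F minus pGAPDH -2.74 and -3.39. On this scale nearly every TRE5GCNC element gave more RNA per DNA with pGAPDH: limma called 239 of 243 higher than with pMYC as promoters and 243 of 243 as enhancers. The 4 without a call were TRE5GCNC0053.fwd, TRE5GCNC0094.rev, TRE5GCNC0117.rev and TRE5GCNC0164.fwd. Against pAPOBEC3F, pGAPDH was higher for 250 of 254 elements as promoters and lower for 3, with TRE5GCNC0107.rev not called, and higher for 252 of 252 as enhancers. As promoters and enhancers, the TRE5GCNC medians of pGAPDH minus pMYC were 2.15 and 2.52. Those of pAPOBEC3F minus pGAPDH were -2.66 and -3.41. These lay near the medians over all shared elements, for which calls on this scale were not counted. The medians over all shared elements were then subtracted, so the following differences say how an element departs from the other elements.

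Relative to that common shift, the TRE5GCNC elements differed most between pGAPDH and the other minimal promoters. As promoters, pGAPDH minus pMYC was higher for 86 of 243 and lower for 109 (35.4% and 44.9%), beside 35.2% and 41.2% of all 2469 shared elements, at a limma adjusted p under 0.05. For pAPOBEC3F minus pGAPDH it was 117 and 98 of 254 (46.1% and 38.6%), beside 42.9% and 39.1% of 2599. For pAPOBEC3F minus pMYC it was 72 and 41 of 230 (31.3% and 17.8%), beside 27.9% and 17.1% of 2279. Called differences of at least 1 were found at 1 higher and 35 lower elements for pGAPDH minus pMYC, at 66 and 4 for pAPOBEC3F minus pGAPDH, and at 3 and 0 for pAPOBEC3F minus pMYC. They were not counted over all elements at this limit. The SD of the differences over the TRE5GCNC elements was 0.68, 0.99 and 0.38 in this order, beside 0.78, 1.10 and 0.43 over all elements. The elements' order was nearly the same under pMYC and pAPOBEC3F, with r of 0.964 (rho 0.951, 230 elements in shared libraries). It was less so under pGAPDH and pMYC (r 0.757, rho 0.693, 243 elements) or pAPOBEC3F and pGAPDH (r 0.667, rho 0.600, 254 elements). Over all elements r was 0.967, 0.837 and 0.782 for these pairs. The spread of the promoter ratios under pGAPDH was 0.52 times that under pMYC, and that of the enhancer ratios 0.44 times. Over all elements these were 0.51 and 0.44 times. As enhancers, pGAPDH minus pMYC was higher for 33 and lower for 54 of 243 (13.6% and 22.2%), beside 8.87% and 21.8% of 2468, and pAPOBEC3F minus pGAPDH was higher for 43 and lower for 10 of 252 (17.1% and 3.97%), beside 17.9% and 3.85% of 2595. Between pAPOBEC3F and pMYC, limma called 0 of 229 enhancer differences in either direction, beside 0.0439% and 0.0% of 2279. An unadjusted limma p under 0.05 was found for 33 of them. Without a variance trend, the enhancer calls were 2 and 28 for pGAPDH minus pMYC and 21 and 1 for pAPOBEC3F minus pGAPDH.

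Left-out libraries changed several of these counts. For pAPOBEC3F minus pMYC as promoters, 72 became 45 without DNA replicate 2, and 41 became 18 without DNA replicate 1, 21 without DNA replicate 2, 62 without RNA replicate 1 and 74 without RNA replicate 2. For pGAPDH minus pMYC as enhancers, 33 became 4 and 5, and 54 became 23 and 28, without DNA replicates 1 and 2. For pAPOBEC3F minus pGAPDH as enhancers, 43 became 26 without DNA replicate 1, and 10 became 0 without either DNA library and 34 without either RNA library. For pAPOBEC3F minus pMYC as enhancers, the calls of 0 became 10 higher and 18 lower without RNA replicate 1, 19 and 20 without RNA replicate 2, and 0 and 1 without DNA replicate 2.

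Several strong promoters had much smaller ratios under pGAPDH. TRE5GCNC0117.rev, at 4.17 ± 0.01 with pMYC and at 1.65 ± 0.05 with pGAPDH (SD, n = 2 each), had a centred difference of -2.15 ± 0.09 (SE, limma adjusted p 1.7e-22). On the scale of the shared libraries the same difference was 0.05, with no call. TRE5GCNC0094.rev gave 2.93 and 2.90 under pMYC and 0.45 and 0.40 under pGAPDH, a centred difference of -2.11 ± 0.06 and 0.09 without centring. TRE5GCNC0171.rev had a centred difference of 3.19 ± 0.05 between pAPOBEC3F and pGAPDH (SE, limma adjusted p 1.2e-12) and 0.45 without centring, and it was also 1.10 ± 0.05 higher under pAPOBEC3F than under pMYC. TRE5GCNC0081.rev gave -0.55 and -0.63 under pGAPDH and 3.12 and 2.81 under pAPOBEC3F, a centred difference of 3.11 ± 0.13 (SE). Opposite differences belonged to elements that were low under pMYC or pAPOBEC3F. TRE5GCNC0025.fwd was 1.02 ± 0.12 and TRE5GCNC0093.rev 0.74 ± 0.07 higher under pGAPDH than under pMYC, with pMYC ratios of -1.60 and -1.55, and -0.70 and -0.88. Between pAPOBEC3F and pGAPDH, TRE5GCNC0028.rev differed by -1.11 ± 0.07 (SE, limma adjusted p 6.0e-08) and TRE5GCNC0043.fwd by -1.27 ± 0.34, the latter from 7 and 14 RNA reads; its limma adjusted p of 0.00487 became 0.11 without DNA replicate 1 and 0.073 without DNA replicate 2.

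Between pAPOBEC3F and pMYC as promoters, TRE5GCNC0048.rev had the highest of the called centred differences, followed by TRE5GCNC0171.rev. TRE5GCNC0048.rev gave 0.83 and 0.81 under pMYC and 2.26 and 2.12 under pAPOBEC3F, a centred difference of 1.27 ± 0.08 (SE, limma adjusted p 4.1e-05). At the other end TRE5GCNC0039.rev gave 0.33 and 0.40 under pMYC and -0.30 and -0.18 under pAPOBEC3F, and TRE5GCNC0064.rev 0.35 and 0.52 against -0.07 and -0.18. Their centred differences were -0.70 ± 0.14 and -0.67 ± 0.16 (SE, limma adjusted p 0.00523 and 0.0114), and both calls ended without DNA replicate 1 (0.093 each), that of TRE5GCNC0064.rev also without DNA replicate 2 (0.058). As enhancers, TRE5GCNC0117.rev and TRE5GCNC0149.rev had the lowest called differences of pGAPDH against pMYC, -2.08 ± 0.21 and -1.30 ± 0.10 (SE, limma adjusted p 1.8e-08 and 3.1e-10). TRE5GCNC0135.fwd and TRE5GCNC0171.fwd were 1.45 ± 0.24 and 1.40 ± 0.15 higher under pAPOBEC3F than under pGAPDH (SE, limma adjusted p 3.4e-05 and 2.7e-08). Without centring these 4 signs turned, to 0.44, 1.22, -1.935 and -1.99. The call of TRE5GCNC0135.fwd ended in a limma fit without a variance trend (adjusted p 0.06). TRE5GCNC0084.rev and TRE5GCNC0008.rev were 0.77 ± 0.19 and 0.71 ± 0.16 higher under pGAPDH than under pMYC, and TRE5GCNC0141.fwd and TRE5GCNC0138.fwd differed by -0.45 ± 0.15 and -0.45 ± 0.13 for pAPOBEC3F minus pGAPDH (SE, limma adjusted p 0.0323 and 0.016). These 4 enhancer calls ended without DNA replicate 1 (limma adjusted p 0.086, 0.067, 0.39 and 0.30) and without DNA replicate 2 (0.058, 0.078, 0.16 and 0.10).

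Calls as promoters sorted the elements into a few patterns across minimal promoters. Of 229 TRE5GCNC elements tested with all 3, the authors' deposited tables had 64 higher under all 3, 41 lower under all 3 and 4 called under none, or 27.9%, 17.9% and 1.75%, beside 30.3%, 21.4% and 2.55% of all 2237 elements. Another 28 were higher under both pMYC and pAPOBEC3F, where 112 were higher under both, and lower under pGAPDH; the reverse pattern was that of 1 element, TRE5GCNC0028.rev. The 28 made up 12.2%, beside 9.3% of all elements, and the reverse pattern was found for 0.313% of all. The 28 elements came from 25 loci and included both orientations of TRE5GCNC0023, TRE5GCNC0048 and TRE5GCNC0053. Their lowest, median and highest promoter ratios were 0.16, 0.68 and 1.93 under pMYC, 0.19, 1.14 and 2.63 under pAPOBEC3F, and -1.01, -0.28 and -0.10 under pGAPDH. TRE5GCNC0048.fwd, for example, gave 1.71 and 1.80 under pMYC, 2.68 and 2.58 under pAPOBEC3F and -0.07 and -0.21 under pGAPDH. TRE5GCNC0053 had the lowest pGAPDH promoter ratios of the 28, -0.97 and -0.87 for fwd and -0.99 and -1.02 for rev. As enhancers, 18 of the same 28 were higher and 1 lower under pMYC, 12 and 1 under pAPOBEC3F, and 7 and 6 under pGAPDH. Among TRE5GCNC elements higher as promoters, 66.9% under pMYC and 48.6% under pAPOBEC3F were higher as enhancers, beside 71.7% and 56.6% of all such elements. Enhancer calls were not counted over the 208 of all elements with this pattern. Of the 28, both elements of TRE5GCNC0053 were among those higher as enhancers with every minimal promoter. They stood at 0.36 and 0.29 for fwd and 0.20 and 0.30 for rev under pGAPDH. This pattern depends on the authors' zero point of each table. On the scale of the shared libraries pGAPDH gave more RNA per DNA than pMYC for 239 of 243 TRE5GCNC elements. TRE5GCNC0053.fwd was 1 of the 4 without a call. In the enhancer tables, 40 of 228 elements were higher under all 3, 5 lower under all 3 and 65 called under none, or 17.5%, 2.19% and 28.5%, beside 17.4%, 1.92% and 31.6% of all elements.

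Both orientations of a locus were often called in the same direction. In the authors' deposited tables of the promoter read-out, both were higher at 50 of 113 loci under pMYC, 25 of 135 under pGAPDH and 54 of 120 under pAPOBEC3F, and both lower at 13, 40 and 19. Over all loci of these tables both were higher at 42.6%, 23.9% and 44.4%, where the TRE5GCNC loci had 44.2%, 18.5% and 45%, and both lower at 15.4%, 30.2% and 21.1%, where they had 11.5%, 29.6% and 15.8%. In the remaining mixed loci, 1 orientation was higher and the other lower at 13, 29 and 7 loci, and in these the fwd element was the higher one at 10, 22 and 7. Such mixed loci were 11.5%, 21.5% and 5.83%, beside 7.37%, 16.2% and 4.03% of all loci. Those with the fwd element higher were 8.85%, 16.3% and 5.83%, beside 5.8%, 9.31% and 3.36% of all loci. As enhancers, both were higher at 37 of 113, 21 of 135 and 22 of 119 loci. These were 32.7%, 15.6% and 18.5%, beside 30.1%, 13.3% and 21.9% of all loci. Both were lower at 1, 12 and 0 loci (0.885%, 8.89% and 0%), beside 1.47%, 6.71% and 1.35% of all loci. Mixed loci numbered 2, 3 and 0 (1.77%, 2.22% and 0%), beside 1.29%, 0.979% and 0.505% of all loci. In each of these TRE5GCNC loci the rev element was the higher one. Over all loci, mixed loci with rev higher made up 0.737%, 0.979% and 0.253%, and those with fwd higher 0.552%, 0% and 0.253%.

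Listed without a test were 3 values. TRE5GCNC0177.rev had 37 and 34 DNA reads and 48 and 61 RNA reads in the pGAPDH promoter table and 8 and 8 DNA reads and 23 and 26 RNA reads in the pGAPDH enhancer table. Its promoter ratios were high under the other minimal promoters, 1.84 and 1.38 under pMYC and 2.06 and 2.03 under pAPOBEC3F, and -0.25 and 0.08 under pGAPDH. TRE5GCNC0012.fwd had 1 and 0 DNA reads and 0 RNA reads in the pAPOBEC3F enhancer table, so no ratio is given there, and its promoter ratios under pAPOBEC3F were 1.24 and 1.13 from 668 and 696 DNA reads. In all, 39 elements were measured under 2 minimal promoters and 13 under 1, and these enter each table's counts where they are present.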

How the data were processed

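The sources used here are 6 tables of 1 plasmid pool, for 3 minimal promoters and 2 read-outs, from 8 libraries. The authors deposited, per the file headers, a scaled signal per element and library, a log2 fold change of RNA over DNA with its p-value and adjusted p-value, and limma's B statistic, a score not used in the results. Per the submitters' processing notes, fastp, edgeR, limma and hg38 were used; versions and roles are not given in the sources used here. Every deposited signal was a whole multiple (within 0.02 of a whole number) of a library's smallest step, 100% of values, and these multiples are called reads. They are inferred from the steps of the scaled values, and whether 1 step is exactly 1 sequenced read is not given in the sources used here.

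Log2 RNA/DNA ratios per replicate were computed from the reads after adding 0.5, on the authors' scaling, and differed from the authors' fold changes by at most 0.0535. Calls of RNA over DNA are the authors' own, at an adjusted p under 0.05. Orientations, and minimal promoters sequenced in the same libraries, were compared with limma 3.58.1 (R 4.3.3) on within-library differences of log2 reads, RNA minus DNA, with a variance trend on depth and Benjamini-Hochberg adjustment over all loci or elements of the comparison. Minimal promoter differences were centred on the median of all shared elements. Python 3.11.15, numpy 2.4.6, pandas 2.3.3 and scipy 1.17.1 were used, and the fits were tested on simulated data.

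With 2 replicates an SD is imprecise. Elements named in the text were the 3 highest and 3 lowest called elements of each table (1 per locus), the 2 largest orientation differences per table, the 2 largest differences each way per pair of minimal promoters, the 2 largest rank shifts each way, TRE5GCNC0053, TRE5GCNC0054 and elements without a test; any others were chosen after their values were seen. The members and lists were chosen with earlier results of these data known. The 3 index libraries and the 8 libraries of the other pool were not used here.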

Additional observations from a re-analysis of the deposited data

Results flagged for a closer look

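Single elements drew attention because their log2 RNA/DNA ratio differed between minimal promoters in a limma test of the difference itself, after centring on the median of all shared elements. All values are log2 differences ± SE over 2 RNA and 2 DNA libraries, with p adjusted over all shared elements, and they are the largest called differences of each pair in each direction.

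As promoters, pGAPDH minus pMYC was -2.15 ± 0.09 for TRE5GCNC0117.rev (limma adjusted p 1.7e-22) and -2.11 ± 0.06 for TRE5GCNC0094.rev (3.1e-29). It was 1.02 ± 0.12 for TRE5GCNC0025.fwd (limma adjusted p 7.5e-10) and 0.74 ± 0.07 for TRE5GCNC0093.rev (1.5e-12). For pAPOBEC3F minus pMYC, TRE5GCNC0039.rev stood at -0.70 ± 0.14 (limma adjusted p 0.00523) and TRE5GCNC0064.rev at -0.67 ± 0.16 (0.0114). TRE5GCNC0048.rev stood at 1.27 ± 0.08 (limma adjusted p 4.1e-05) and TRE5GCNC0171.rev at 1.10 ± 0.05 (1.8e-05). For pAPOBEC3F minus pGAPDH the values were -1.27 ± 0.34 for TRE5GCNC0043.fwd (limma adjusted p 0.00487) and -1.11 ± 0.07 for TRE5GCNC0028.rev (6e-08), and 3.19 ± 0.05 for TRE5GCNC0171.rev (1.2e-12) and 3.11 ± 0.13 for TRE5GCNC0081.rev (8.9e-10).

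As enhancers, pGAPDH minus pMYC was -2.08 ± 0.21 for TRE5GCNC0117.rev (limma adjusted p 1.8e-08), -1.30 ± 0.10 for TRE5GCNC0149.rev (3.1e-10), 0.77 ± 0.19 for TRE5GCNC0084.rev (0.00255) and 0.71 ± 0.16 for TRE5GCNC0008.rev (0.00114). For pAPOBEC3F minus pGAPDH it was -0.45 ± 0.15 for TRE5GCNC0141.fwd (limma adjusted p 0.0323), -0.45 ± 0.13 for TRE5GCNC0138.fwd (0.016), 1.45 ± 0.24 for TRE5GCNC0135.fwd (3.4e-05) and 1.40 ± 0.15 for TRE5GCNC0171.fwd (2.7e-08). Without a variance trend the enhancer calls of TRE5GCNC0008.rev, TRE5GCNC0141.fwd, TRE5GCNC0138.fwd and TRE5GCNC0135.fwd ended. No enhancer difference between pAPOBEC3F and pMYC was called among the TRE5GCNC elements.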

How the results depend on the processing

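Of 68 values of single elements or loci, 20 lost their call under at least 1 alternative: 19 with 1 library left out, 6 without a variance trend and 1 with the replicate number as a block. The 6 lost without a variance trend were all of enhancers. They were the orientation differences of TRE5GCNC0161 under pGAPDH (limma adjusted p 0.17) and TRE5GCNC0097 under pAPOBEC3F (0.066). The others were pGAPDH minus pMYC of TRE5GCNC0008.rev (0.056) and pAPOBEC3F minus pGAPDH of TRE5GCNC0141.fwd (0.11), TRE5GCNC0138.fwd (0.098) and TRE5GCNC0135.fwd (0.06). A count test in edgeR, planned for recovered counts, was not run because the reads are inferred. The pAPOBEC3F enhancer table had the lowest reads, with 41 elements under 20 RNA reads. A fit without 1 library takes its spread from the molecule that keeps 2.

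With a limit of 1 on the absolute log2 ratio, the higher and lower calls became 66 and 3 (pMYC promoter), 12 and 9 (pGAPDH promoter), 32 and 0 (pMYC enhancer), 0 and 0 (pGAPDH enhancer) and 33 and 1 (pAPOBEC3F enhancer), with 5 lower calls left for the pAPOBEC3F promoter. The same limit left 4 fwd and 3 rev orientation calls for pMYC promoters, 3 and 4 with pGAPDH, 6 and 0 with pAPOBEC3F, and 0 and 3, 0 and 0, and 1 and 2 for their enhancers. It left 1 higher and 35 lower for pGAPDH minus pMYC promoters, 3 and 0 for pAPOBEC3F minus pMYC, 66 and 4 for pAPOBEC3F minus pGAPDH, and 0 and 9 (pGAPDH minus pMYC) and 14 and 0 (pAPOBEC3F minus pGAPDH) as enhancers. At an adjusted p under 0.01 the lower enhancer calls were 9, 34 and 3 for pMYC, pGAPDH and pAPOBEC3F. Orientation calls at 0.01 were 0 fwd for pMYC enhancers, 2 and 10 with pGAPDH, and 1 and 1 with pAPOBEC3F. The lower calls of pAPOBEC3F minus pMYC promoters were 20, the higher calls of pGAPDH minus pMYC enhancers 14, and the lower calls of pAPOBEC3F minus pGAPDH enhancers 0. These limits keep fewer calls by construction.

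Centred on the table median, lower calls were 88 and 104 for pMYC and pAPOBEC3F promoters and 53 and 28 for their enhancers. For pGAPDH the higher and lower calls were then 125 and 111 for promoters and 74 and 59 for enhancers. Without centring between minimal promoters, higher and lower calls were 239 and 0, 10 and 149, and 3 and 250 for promoters (pGAPDH minus pMYC, pAPOBEC3F minus pMYC, pAPOBEC3F minus pGAPDH) and 243 and 0, 0 and 200, and 0 and 252 for enhancers. It turned the sign of TRE5GCNC0117.rev (0.0509 as promoter, 0.44 as enhancer), TRE5GCNC0094.rev (0.091), TRE5GCNC0149.rev (1.22), TRE5GCNC0135.fwd (-1.935) and TRE5GCNC0171.fwd (-1.99), since it adds the common shift back. Without a variance trend, orientation calls for fwd and rev enhancers were 0 and 2 (pMYC), 0 and 1 (pGAPDH) and 0 and 1 (pAPOBEC3F). Enhancer calls were then 2 and 28 for pGAPDH minus pMYC and 21 and 1 for pAPOBEC3F minus pGAPDH; the cause was not tested. With 2 reads added, 16 were lower for the last pair.

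In place of the median, the mean ratio was 0.55, -0.0282 and 0.77 for promoters (pMYC, pGAPDH, pAPOBEC3F) and 0.36, 0.0527 and 0.26 for enhancers. Minus the median of all elements, the medians were 0.0786, 0.0219 and 0.0983 for promoters and -0.0055 (pMYC) and 0.0203 (pAPOBEC3F) for enhancers. Over loci, they were -0.0721 (pGAPDH promoter), 0.36 (pAPOBEC3F promoter) and 0.0932 (pAPOBEC3F enhancer). Replicate 1 alone gave 0.36 and 0.12 for pAPOBEC3F as promoter and enhancer, and replicate 2 alone 0.35 (pMYC promoter), -0.0593 (pGAPDH promoter), 0.21 (pMYC enhancer) and 0.12 (pAPOBEC3F enhancer).

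The labels do not say that a replicate number pairs RNA with DNA, and deviations of same-numbered libraries correlated with r of -0.0743 to 0.028. With the replicate number as a block, the rev calls of pAPOBEC3F enhancers became 2, pAPOBEC3F minus pMYC enhancers had 3 higher and 4 lower, and TRE5GCNC0097 had a limma adjusted p of 0.078. No other count moved by over 1.5 times with the block.

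Leaving out 1 library gave 39 to 75 lower pAPOBEC3F promoters, 6 to 23 lower pMYC, 24 to 49 lower pGAPDH, 48 to 93 higher and 1 to 45 lower pAPOBEC3F enhancers. Orientation calls ranged over 33 to 64 fwd and 11 to 26 rev for pAPOBEC3F promoters, 0 to 15 and 5 to 19 for pMYC enhancers, 1 to 9 and 1 to 32 for pGAPDH enhancers and 0 to 19 and 0 to 29 for pAPOBEC3F enhancers. Minimal promoter calls ranged over 45 to 88 higher and 18 to 74 lower (pAPOBEC3F minus pMYC promoters), 4 to 44 and 23 to 55 (pGAPDH minus pMYC enhancers), 0 to 19 and 0 to 20 (pAPOBEC3F minus pMYC enhancers) and 26 to 51 and 0 to 34 (pAPOBEC3F minus pGAPDH enhancers).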
